A study of Mus musculus with 8 samples.

Results

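Il3, Csf2 and Csf1 encode the haematopoietic growth factors interleukin-3, GM-CSF and M-CSF. These 3 genes, of the 11841 symbols in the deposited table, were taken by symbol as growth factor genes that helper T cells make, and each stood on 1 line. RNA came from CD44+ CD4+ T cells, helper cells that have met antigen, of skin-draining lymph nodes of BALB/cAJcl mice. There were 4 genotypes with 2 libraries each: mice lacking both T-bet and STAT6 (T-bet-/- STAT6-/-, double-null), T-bet alone (T-bet-/-, T-bet-null), STAT6 alone (STAT6-/-, STAT6-null) or neither (wild type, WT). All 8 samples, WT included, received PMA and ionomycin over 2 h, which stimulate T cells without their receptor and induce cytokine transcripts. The labels give neither the cell type in which the genes were deleted nor age, sex or pooling of animals.

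Interleukin-3 supports mast cells, basophils and early progenitors, and GM-CSF acts on granulocytes, macrophages and dendritic cells. Their receptors share a beta chain with the interleukin-5 receptor and signal through JAK2 and STAT5, whereas M-CSF binds the receptor kinase encoded by Csf1r and sustains macrophages. Il3 and Csf2 are neighbours beside the type 2 cytokine cluster, and in T cells both are induced through NFAT, AP-1 and NF-kB. T-bet directs Th1 development, and STAT6 relays interleukin-4 and interleukin-13.

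Values are FPKM, fragments scaled to transcript length and library size. Tbx21, the gene of T-bet, averaged 2.29 FPKM in double-null, 1.49 in T-bet-null and 97 in STAT6-null cells, against 31.2 in WT cells. Stat6 averaged 28.2 FPKM in double-null, 89.3 in T-bet-null and 30.3 in STAT6-null cells, against 90.4 in WT cells, so each targeted transcript was lowest where its loss was labelled and present in all libraries. The WT libraries stood apart: Pearson r over genes was 0.9492 to 0.9642 with mutant libraries, against 0.9865 to 0.9912 between mutant genotypes and 0.9971 to 0.9979 within a genotype. Markers of CD4 T cells were high throughout, with a summed level of 2950 to 3160 FPKM in double-null, 2790 to 2850 in T-bet-null, 3380 to 3410 in STAT6-null and 3360 to 3430 in WT libraries (10 of 13 listed genes). Differences are on the log2(FPKM + 1) scale from a limma fit of all 8 libraries, given as log2 difference ± SE, and a gene was called at a Benjamini-Hochberg adjusted p under 0.05 over 10281 tested genes. The labels do not say whether both libraries of a genotype came from different animals. The p-values therefore reflect no more than the spread between the samples, and that spread may be technical. In bulk RNA, fewer producing cells and less RNA per cell cannot be told apart.

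Loss of T-bet, STAT6 or both left Il3 above its WT level. It stood at 71.8 and 38.7 FPKM in double-null, 81.3 and 79.6 in T-bet-null, 125 and 133 in STAT6-null, and 24.6 and 19.7 in WT libraries. STAT6-null libraries were the highest, WT libraries the lowest, and the mutant ranges overlapped neither WT nor each other. Double-null cells averaged 55.2 ± 23.4 FPKM, T-bet-null 80.5 ± 1.22, STAT6-null 129 ± 5.63 and WT 22.1 ± 3.44 (mean ± SD, n = 2 each).

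Against WT, Il3 rose by 1.22 ± 0.227 in double-null cells (2.34-fold on the FPKM + 1 scale, limma adjusted p = 0.00103). The Il3 rise was 1.82 ± 0.227 in T-bet-null cells (3.54-fold, limma adjusted p = 0.000102) and 2.5 ± 0.227 in STAT6-null cells (5.66-fold, limma adjusted p = 1.35e-05). Among 10281 genes, the Il3 difference was the 17th highest in STAT6-null, the 36th in T-bet-null and the 352nd in double-null cells. Between the mutants, double-null cells had less Il3 than STAT6-null cells (-1.28 ± 0.227, limma adjusted p = 0.00576). The neighbouring steps of the order did not pass: double-null against T-bet-null gave -0.6 (95% interval -1.12 to -0.08, limma adjusted p = 0.0734), and STAT6-null against T-bet-null gave 0.68 (0.16 to 1.19, limma adjusted p = 0.0557). The double-null pair differed 1.86-fold in Il3 and enters the spread of both tests. Without double-null replicate 1 the difference from T-bet-null cells was -1.04 (limma adjusted p = 0.000769), and without double-null replicate 2 it was -0.16 (limma adjusted p = 0.347). Without either of them STAT6-null exceeded T-bet-null cells at 0.68 (limma adjusted p = 0.00139 and 0.00138).

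**Figure D1:**
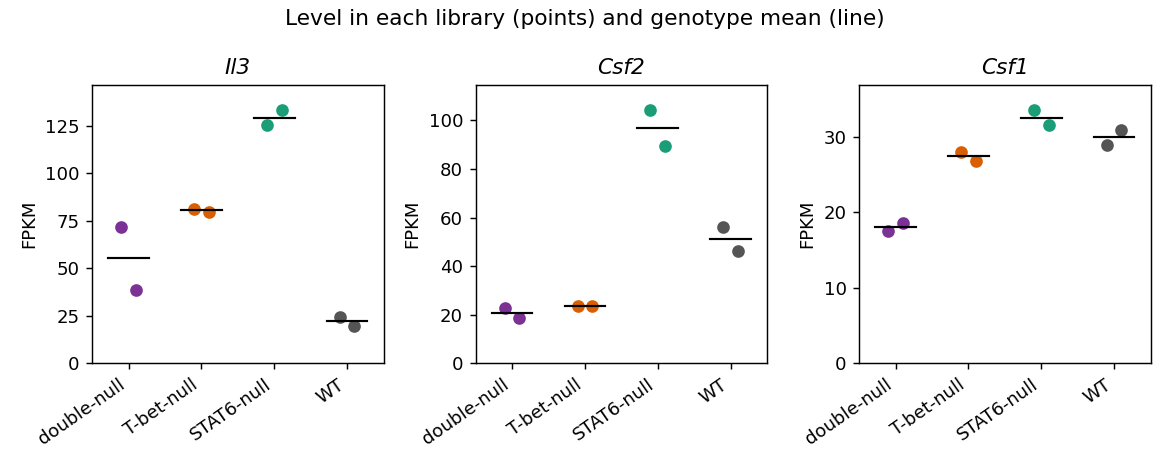
FPKM of Il3, Csf2 and Csf1 (vertical axes from 0, 1 panel per gene) in the 4 genotypes; points are single libraries and lines are means of 2. Il3 is lowest in WT at 24.6 and 19.7 FPKM, Csf2 is lowest in the genotypes lacking T-bet, and Csf1 stands apart only in double-null cells at 17.5 and 18.6 FPKM.

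Csf2 split by T-bet. It stood at 22.7 and 18.7 FPKM in double-null, 23.4 and 23.5 in T-bet-null, 104 and 89.4 in STAT6-null, and 56.2 and 46.2 in WT libraries. All 4 libraries without T-bet lay below both WT libraries, and both STAT6-null libraries lay above them. Double-null cells averaged 20.7 ± 2.84 FPKM, T-bet-null 23.5 ± 0.0285, STAT6-null 96.8 ± 10.5 and WT 51.2 ± 7.09 (mean ± SD, n = 2 each).

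Csf2 fell by 1.27 ± 0.116 in double-null cells against WT (limma adjusted p = 1.15e-05) and by 1.09 ± 0.116 in T-bet-null cells (limma adjusted p = 3.99e-05). It rose by 0.91 ± 0.116 in STAT6-null cells (1.88-fold, limma adjusted p = 0.000111). The largest Csf2 difference did not involve WT: double-null cells had 4.52-fold less than STAT6-null cells (-2.18 ± 0.116, limma adjusted p = 8.11e-06), the 9th lowest difference among 10281 genes. STAT6-null cells likewise exceeded T-bet-null cells by 1.99 ± 0.116 (3.99-fold, limma adjusted p = 6.83e-06), the 19th highest. Double-null and T-bet-null cells were not separated (-0.18, 95% interval -0.44 to 0.08, limma adjusted p = 0.259). GENCODE M21 places an antisense gene, Gm12223, over Csf2, and whether strand was used is not stated in the sources used here, so reads of the pair cannot be told apart.

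Csf1 was lower in double-null cells and was called against WT in neither single mutant. It stood at 17.5 and 18.6 FPKM in double-null, 28 and 26.8 in T-bet-null, 33.5 and 31.6 in STAT6-null, and 29 and 30.9 in WT libraries. Only the double-null range lay clear of the rest of the libraries by more than the gap within any pair. Double-null cells averaged 18 ± 0.796 FPKM, T-bet-null 27.4 ± 0.86, STAT6-null 32.5 ± 1.38 and WT 30 ± 1.4 (mean ± SD, n = 2 each).

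Csf1 fell by 0.7 ± 0.062 in double-null cells against WT (1.63-fold lower, limma adjusted p = 9.57e-06). Single losses did not pass the test, with -0.13 in T-bet-null (95% interval -0.27 to 0.02, limma adjusted p = 0.0985) and 0.12 in STAT6-null cells (-0.03 to 0.26, limma adjusted p = 0.123). Without WT in the comparison Csf1 was also called lower in double-null cells, at -0.58 ± 0.062 against T-bet-null (limma adjusted p = 0.000313) and -0.82 ± 0.062 against STAT6-null cells (limma adjusted p = 6.77e-05). STAT6-null cells had 1.18-fold more Csf1 than T-bet-null cells (0.24 ± 0.062, limma adjusted p = 0.0204). That call was lost without T-bet-null replicate 1 (0.27, limma adjusted p = 0.0625), T-bet-null replicate 2 (0.21, limma adjusted p = 0.135) or STAT6-null replicate 1 (0.2, limma adjusted p = 0.127).

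These calls stand on a wide background. All 3 members were called in double-null cells against WT, where 73% of tested genes were called, with 36.3% higher and 36.7% lower. In T-bet-null cells against WT it was 2 of 3, beside 70.6% of all genes (34.2% higher, 36.3% lower), and in STAT6-null cells 2 of 3, beside 71% (34.9% higher, 36.1% lower). The share of called members against WT is therefore near that of all genes. Between mutants the background was smaller. For double-null against STAT6-null cells 3 of 3 members were called, all lower, beside 19.9% of genes in either direction, 11.3% higher and 8.63% lower. For double-null against T-bet-null cells it was 1 of 3, beside 32.6% (16.4% higher, 16.2% lower), and for STAT6-null against T-bet-null cells 2 of 3, beside 27.2% (12.3% higher, 14.9% lower).

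**Figure D2:**
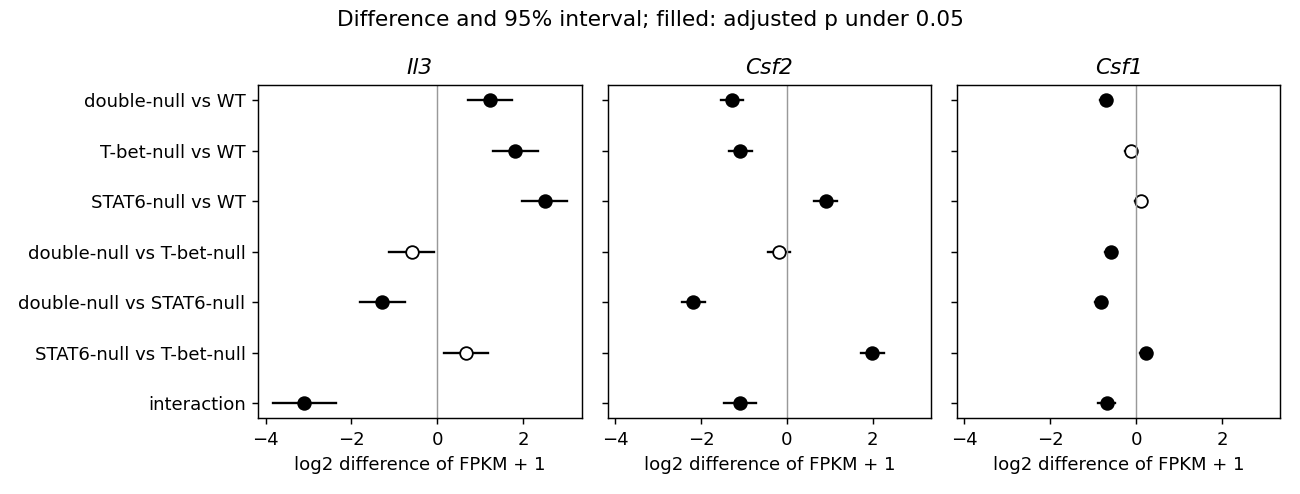
Difference of log2(FPKM + 1) (horizontal axis) for Il3, Csf2 and Csf1 in 7 comparisons (rows), with 95% intervals of the limma fit; filled points have an adjusted p under 0.05. Il3 is right of 0 in the 3 comparisons with WT, Csf2 lies on both sides, and all 3 members lie left of 0 in the interaction row.

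For each of the 3 genes, the difference seen with STAT6 loss was called unlike in cells with and without T-bet. In cells that already lacked T-bet, STAT6 loss gave -0.6 for Il3, -0.18 for Csf2 and -0.58 for Csf1, of which only Csf1 passed. With T-bet intact, STAT6 loss gave 2.5, 0.91 and 0.12 in the same order, of which Csf1 did not pass. The interaction, the first effect minus the second, was -3.1 ± 0.321 for Il3 (limma adjusted p = 9.27e-05), the 4th lowest among 10281 genes. It was -1.09 ± 0.164 for Csf2 (limma adjusted p = 0.000616) and -0.69 ± 0.088 for Csf1 (limma adjusted p = 0.000256). All 3 members were thus called lower in the interaction, beside 27.7% of tested genes called lower, 29.6% called higher and 57.3% in either direction. The interaction includes the WT libraries, which stood apart from every mutant. Rapgef6 and Ahcyl1, neighbours with like levels in all mutants, gave -0.87 and -1.3 in it. The part of WT alone in the interactions of the members was not tested. Set out by T-bet loss, the same cells gave Il3 -1.28 without STAT6 and 1.82 with it, Csf2 -2.18 and -1.09, and Csf1 -0.82 and -0.13.

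The balance among the growth factors moved with genotype. Per transcript length, the ratio of Il3 to Csf2 was 3.16 and 2.07 in double-null, 3.47 and 3.39 in T-bet-null, 1.2 and 1.49 in STAT6-null, and 0.437 and 0.426 in WT libraries. Il3 therefore exceeded Csf2 in all 6 mutant libraries and was under it in both WT libraries. Of the summed FPKM of the 3 genes, Csf2 made up 20.3% and 24.6% in double-null, 17.7% and 18.1% in T-bet-null, 39.6% and 35.2% in STAT6-null, and 51.2% and 47.7% in WT libraries. The sum itself was 111.9 and 75.9 FPKM in double-null, 132.8 and 129.9 in T-bet-null, 263 and 254.2 in STAT6-null, and 109.8 and 96.9 in WT libraries. STAT6-null libraries thus had the highest sum of these 3 genes, and double-null and WT libraries overlapped.

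**Figure D3:**
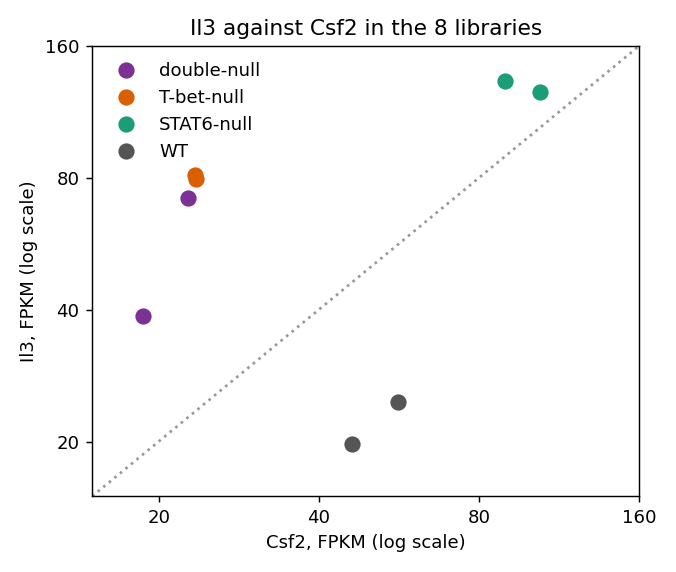
Il3 against Csf2 in the 8 libraries, both in FPKM on log axes; the dotted line marks equal levels and colours give the genotype. Mutant libraries lie above the line and WT libraries below it, and T-bet-null and double-null libraries share low Csf2 of 18.7 to 23.5 FPKM.

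Il3 and Csf2 lie on chromosome 11 of mm10, at 54265085-54267279 and 54247270-54249899 on the minus strand, with 15.2 kb between them. Csf1 lies at 107741048-107760469 on chromosome 3. The start regions of Il3 and Csf2 are shown because the 2 neighbours went opposite ways in T-bet-null cells against WT. They are RefSeq windows of GRCm38.p6 from 250 bases before the gene start to 50 after it, on the minus strand, at chr11:54267230-54267529 (Il3) and chr11:54249850-54250149 (Csf2). Capitals mark matches, on either strand, to any of the motifs named below.

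Il3: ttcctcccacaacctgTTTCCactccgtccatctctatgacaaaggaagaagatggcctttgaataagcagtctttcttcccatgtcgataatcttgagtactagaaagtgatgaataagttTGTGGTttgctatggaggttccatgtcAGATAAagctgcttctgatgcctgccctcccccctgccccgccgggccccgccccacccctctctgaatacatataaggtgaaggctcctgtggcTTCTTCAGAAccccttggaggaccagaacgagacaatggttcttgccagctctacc

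Csf2: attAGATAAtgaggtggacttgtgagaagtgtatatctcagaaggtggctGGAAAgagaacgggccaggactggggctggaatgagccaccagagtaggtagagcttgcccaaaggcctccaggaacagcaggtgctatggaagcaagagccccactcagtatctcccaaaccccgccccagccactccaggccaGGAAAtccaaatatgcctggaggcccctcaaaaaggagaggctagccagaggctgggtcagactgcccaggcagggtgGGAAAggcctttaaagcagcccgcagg

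The windows of 32851 genes were searched on both strands for 9 motifs. The AP-1 motif was read as TGANTCA, and the STAT5 motif as TTCNNNGAA. For STAT6 the outer bases are the same with 4 free bases between them. The T-box motif was read as TCACACC and the RUNX motif as TGTGGT. The GATA-factor motif was AGATAA, the NFAT core was GGAAA and the E-box was CACGTG. The TATA box was read as TATAAA. No capital stretch in either window belongs to more than 1 of these motifs. Il3 held 1 STAT6-type match at position -6 from the gene start, a motif in 6.95% of windows, 1 RUNX match (16.8%) and 1 GATA match (11.2%). Csf2 held 1 GATA match and 3 NFAT cores, against 1 NFAT core in Il3, with at least 1 such core in 61.3% of windows. Neither window held the AP-1 (7.81%), STAT5 (8.3%), T-box (3.98%), E-box (7.15%) or TATA letters (13.6%). GENCODE M21 starts Csf2 232 bases further downstream than RefSeq, so another window would be read from that start. A match is letters only and says nothing of binding.

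Of the other genes within 500 kb of Il3 and Csf2, 5 were tested. Irf1, an interferon response factor 468.9 kb from Csf2, gave -0.5 in double-null, -1.25 in T-bet-null and 0.18 in STAT6-null cells against WT, the last without passing (limma adjusted p = 0.145), though it passed at 0.32 without STAT6-null replicate 2 (limma adjusted p = 0.0283) or WT replicate 1 (limma adjusted p = 0.0317). Rapgef6, an exchange factor for Rap, rose by 0.82 in double-null, 0.83 in T-bet-null and 0.86 in STAT6-null cells, the same side in every mutant. Cdc42se2, an effector of Cdc42, gave -0.97, -1.01 and -0.8 in the same order. Fnip1, a partner of folliculin, gave -0.97, -0.48 and -0.73, and Slc22a5, a carnitine carrier, -0.43, -0.36 and -0.26. The Slc22a5 call in STAT6-null cells was lost with quantile normalization (-0.13, limma adjusted p = 0.235), with only the genotypes compared (limma adjusted p = 0.0543), and without STAT6-null replicate 2 (-0.14, limma adjusted p = 0.244) or either WT replicate (-0.23 and -0.29, limma adjusted p = 0.13 and 0.0677), and that in T-bet-null cells without T-bet-null replicate 2 (-0.31, limma adjusted p = 0.054). Of these 5, only Rapgef6 was called higher in each mutant, as Il3 was. Near Csf1, 11 genes were tested and ranged from -0.9 to 1.2 in double-null cells against WT. The lowest, Gstm4, stood at 0.39 to 0.76 FPKM in mutant libraries. It entered the test only through the WT libraries, at 2.214 and 1.647 FPKM. Closest to Csf1, at 44.5 kb, Ahcyl1, a regulator of the IP3 receptor, rose by 1.2 in double-null, 1.29 in T-bet-null and 1.21 in STAT6-null cells, where Csf1 gave -0.7, -0.13 and 0.12.

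**Figure D4:**
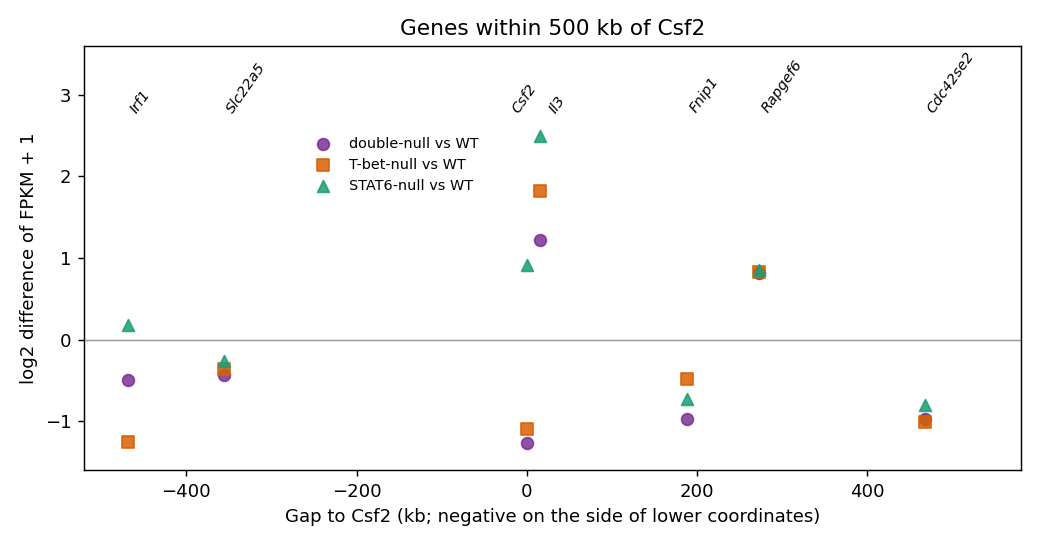
Difference of log2(FPKM + 1) from WT (vertical axis) for the tested genes within 500 kb of Csf2, by their gap to Csf2 in kb (horizontal axis); symbols give the mutant. Il3, 15.2 kb away, is above 0 in each mutant at 1.22 to 2.5, while Csf2 is at -1.27 in double-null, -1.09 in T-bet-null and 0.91 in STAT6-null cells.

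Other growth factor genes were read in the same cells. Of 20 listed, 14 were in the table and 13 were tested. In double-null cells 8 were called higher and 2 lower than in WT (median 0.98), in T-bet-null cells 8 and 3 (median 0.55), and in STAT6-null cells 8 and 3 (median 0.58), beside medians near 0 over all genes. Over all tested genes 36.3%, 34.2% and 34.9% were called higher in the same order, and 73%, 70.6% and 71% in either direction, so the share of the list called at all is near the background.

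Il5, which shares the beta chain receptor and grows eosinophils, stood at 54 and 54.6 FPKM in double-null, 272 and 286 in T-bet-null, 31.7 and 23.4 in STAT6-null, and 32.1 and 21 in WT libraries. Il5 thus peaked without T-bet alone, whereas Il3 peaked without STAT6 alone. Its difference from WT was 1.04 in double-null, 3.37 in T-bet-null and 0.07 in STAT6-null cells, the last without passing (limma adjusted p = 0.751) and changing sign with a library left out, and its interaction was -2.41 (limma adjusted p = 0.000101). The ratio of Il3 to Il5 was 1.33 and 0.708 in double-null, 0.299 and 0.279 in T-bet-null, 3.95 and 5.7 in STAT6-null, and 0.766 and 0.938 in WT libraries.

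Il4 and Il13, the type 2 cytokines, rose in each mutant: Il4 by 2.31 in double-null, 3.81 in T-bet-null and 3.09 in STAT6-null cells, and Il13 by 1.14, 2.57 and 1.66. Il2, the T cell growth factor, rose by 0.98, 0.72 and 0.58, and Il21, which acts on B cells, by 1.65, 0.55 and 2.05. Il9, a mast cell growth factor, rose by 3.71, 2.76 and 2.1, with 0.13 and 0.498 FPKM in WT libraries, and entered the test only through the mutants. These genes shared with Il3 the side of their change in all 3 mutants. Tnfsf11, which encodes RANKL and acts with M-CSF on osteoclasts, rose by 0.95, 0.79 and 0.61, and Osm, which encodes oncostatin M, by 1.22, 0.48 and 0.57.

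Kitl, the stem cell factor gene, rose by 1.35 in STAT6-null cells (3.36 and 3.94 FPKM, against 0.818 and 0.834 in WT), where it entered the test through the STAT6-null libraries and 1 double-null library at 1.01 FPKM, and was lower in double-null than in STAT6-null cells (-1.24). In T-bet-null cells Kitl gave -0.24 (limma adjusted p = 0.0442), a call lost without T-bet-null replicate 1 (-0.16, limma adjusted p = 0.25) or WT replicate 1 (-0.25, limma adjusted p = 0.111) or 2 (-0.24, limma adjusted p = 0.124), or without either double-null replicate (limma adjusted p = 0.0525 and 0.0527). It was also lost with quantile normalization (-0.15, limma adjusted p = 0.199), median-of-ratios scaling (limma adjusted p = 0.0542) or only the genotypes compared (limma adjusted p = 0.0521). Flt3l, a dendritic cell growth factor, fell in each mutant (-1.58 in double-null, -1.23 in T-bet-null and -1.44 in STAT6-null cells). Lif, of the interleukin-6 family, fell in T-bet-null (-0.44) and STAT6-null cells (-0.71) and gave -0.11 in double-null cells without passing (limma adjusted p = 0.12). Vegfa, a vessel growth factor, fell in double-null (-0.61) and STAT6-null cells (-0.55) and gave -0.21 in T-bet-null cells without passing (limma adjusted p = 0.0656). Vegfa lay under 1 FPKM in all double-null and STAT6-null libraries. It entered the test only through T-bet-null (1.3 and 1.33 FPKM) and WT libraries (1.77 and 1.58 FPKM), where it was higher. Its calls are among the lower ones counted above. Il11 stayed at 1.44 to 2.05 FPKM, and Il6 at 0.283 to 0.801 FPKM was too low to test. In the interaction 2 of the 13 were called higher and 7 lower. Beside them, 29.6% of all tested genes were called higher, 27.7% lower and 57.3% in either direction. The lower ones were Il5 (-2.41), Il4 (-4.59), Il13 (-3.09), Il9 (-1.15), Kitl (-0.99), Il21 (-0.95) and Tnfsf11 (-0.46, or -0.38 and not called without STAT6-null replicate 2). Of these, Il9 and Kitl entered the test through mutant libraries only. Flt3l (1.09) and Lif (1.04) were higher.

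**Figure D5:**
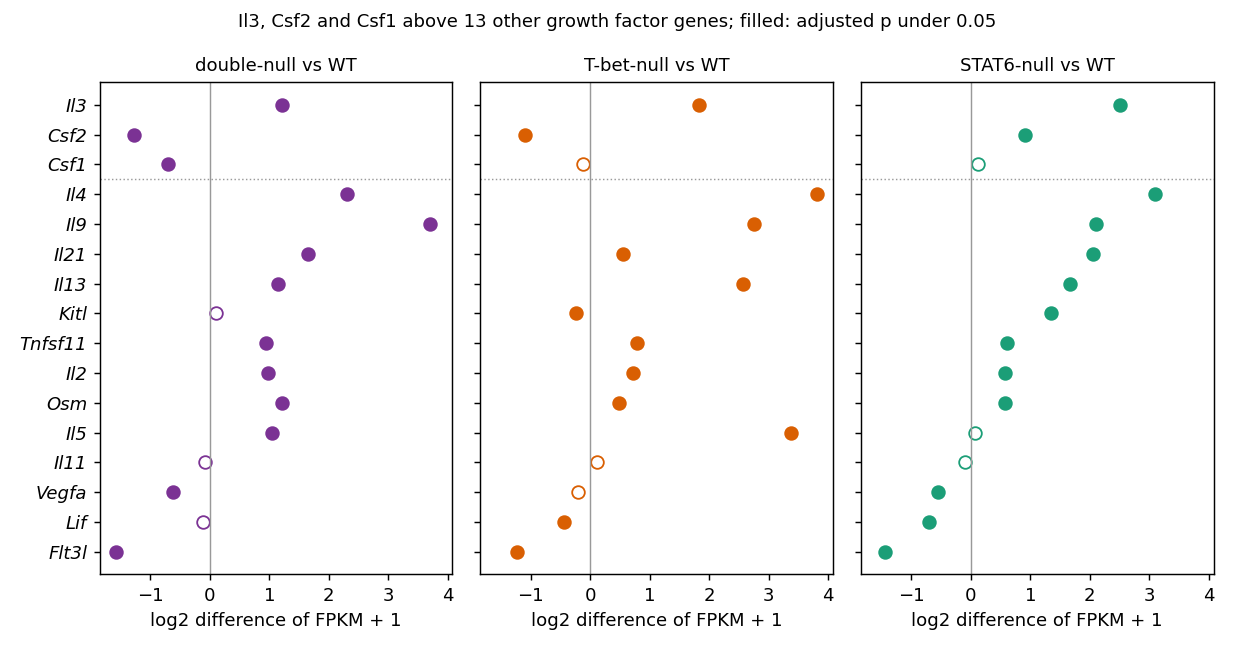
Difference of log2(FPKM + 1) from WT (horizontal axis) for Il3, Csf2 and Csf1 above 13 other growth factor genes (rows) in the 3 mutants (panels); filled points have an adjusted p under 0.05. Csf2 and Csf1 are among the few factors left of 0 in double-null cells, at -1.27 and -0.7, where Il9 reaches 3.71.

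Receptor genes were read next. Of 7 listed, Csf2rb, the shared beta chain, and Csf1r had no line. A missing line need not mean a low level, since Trac, Trbc1 and Trbc2 of the T cell receptor had none either. Il3ra, the interleukin-3 receptor alpha chain, stood at 6.22 and 6.79 FPKM in double-null, 5.82 and 5.75 in T-bet-null, 5.88 and 5.33 in STAT6-null, and 7.71 and 6.75 in WT libraries. Il3ra gave -0.28 in T-bet-null (limma adjusted p = 0.0141) and -0.32 in STAT6-null cells (limma adjusted p = 0.00717), and both calls were lost without WT replicate 1 (-0.19 and -0.23, limma adjusted p = 0.101 and 0.0556). The T-bet-null call was also lost without T-bet-null replicate 1 or 2 (limma adjusted p = 0.0511 and 0.0626), and the STAT6-null call without STAT6-null replicate 2 (limma adjusted p = 0.0571). In double-null cells it gave -0.13 (limma adjusted p = 0.178). Csf2ra, the GM-CSF receptor alpha chain, ranged from 4.2 to 5.94 FPKM over all libraries and was called in none of the 7 comparisons. Csf2rb2, which in mice encodes a beta chain for interleukin-3 alone, ranged from 0.215 to 0.286 FPKM in mutants, against 0.482 and 0.396 in WT, and Il5ra and Csf3r stayed under 1 FPKM.

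Genes of the signalling path behind these receptors went both ways. Of 21 tested, 9 were called higher and 9 lower in double-null cells against WT, 6 and 11 in T-bet-null, and 9 and 5 in STAT6-null cells. Over all tested genes the shares higher and lower were 36.3% and 36.7% in double-null, 34.2% and 36.3% in T-bet-null, and 34.9% and 36.1% in STAT6-null cells, so most of these counts are near the background. Socs2, a STAT5-induced inhibitor, rose by 1.61 in double-null, 1.31 in T-bet-null and 2.28 in STAT6-null cells. Jak2, the kinase on the beta chain, rose by 0.98, 1.12 and 1, and Stat5a by 1.12, 1.05 and 1.15. Ptpn6 and Inpp5d, which encode the phosphatases SHP-1 and SHIP-1 that damp these signals, gave -1.33, -1.49 and -1.05, and -1.47, -1.01 and -1.1. Other cytokines use the same proteins, interleukin-2 among them.

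Transcription factors of helper T cells and of activation, some known to act at Il3 and Csf2, were also read. Of 42 tested, 8 were called higher and 7 lower in double-null against STAT6-null cells (11.3% and 8.63% over all tested genes), the pair with the largest Csf2 difference. Beside Tbx21 (-4.9), Irf1 was lower (-0.69) there. In STAT6-null cells against WT, where Il3 rose most, the largest calls were Fosb (-2.01), Batf, an AP-1 partner (1.64), Tbx21 (1.6), Stat6 (-1.55), Maf (1.52) and Irf8 (1.49). In double-null against T-bet-null cells Gfi1, a repressor active in Th2 cells, was lower (-1.73), as was Gata3, the Th2 factor (-0.87).

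Many early activation genes were lower in the mutants than in WT. The 27 early genes of T cell activation summed to 13400 to 13700 FPKM in double-null, 12400 to 13200 in T-bet-null, 13000 to 14300 in STAT6-null, and 20800 to 21100 in WT libraries. They were called higher and lower in 3 and 21 cases in double-null, 1 and 23 in T-bet-null, and 3 and 19 in STAT6-null cells against WT. Among all tested genes the shares higher and lower were 36.3% and 36.7%, 34.2% and 36.3%, and 34.9% and 36.1% in the same order. Fosb, an AP-1 subunit, gave -1.95 in double-null, -1.78 in T-bet-null and -2.01 in STAT6-null cells, and Egr3 gave -1.92, -1.69 and -1.99. Ier3 went the other way, at 1.76, 1.67 and 1.68 in the same order. Il3 rose where the sum of the early genes was lower, and Csf2 fell or rose beside like sums. The part of the early genes in these differences was not tested.

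Genes that mark GM-CSF-producing and Th17 helper cells did not follow Csf2 as 1 group. Of 19 tested, 9 were higher and 6 lower in double-null against STAT6-null cells, beside 11.3% and 8.63% over all tested genes. With Csf2 (-2.18) went Ifng, the Th1 cytokine (-7.66), the chemokines Ccl3 (-3.92) and Ccl4 (-2.54), and Cxcr3, a Th1 chemokine receptor (-3.89). The Th17 cytokines Il17a (2.21) and Il17f (2.12) went the other way. Il17f averaged 4430 FPKM in double-null, 727 in T-bet-null and 1020 in STAT6-null cells, against 289 in WT cells. Double-null cells thus joined the highest Il17f to low Csf2. T-bet-null cells shared the low Csf2 (-0.18 between these 2 genotypes, limma adjusted p = 0.259) without that Il17f level.

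Genes whose pattern was most like each member were ranked by Pearson r of log2(FPKM + 1) over the 8 libraries, among 1704 genes whose genotype means spanned at least 1 on that scale. The libraries are shared by all genes and fall into genotypes, so r is a description. For Csf2 these were Ccl4 (0.982), Iigp1 (0.982), Ccl3 (0.981), Sfn (0.979) and Tbx21 (0.978). Sfn lay at 0.653 to 0.767 FPKM in the libraries without T-bet and entered only through STAT6-null and WT libraries, where it was higher. Ccl4, the MIP-1 beta chemokine, averaged 82.1 FPKM in double-null, 69.6 in T-bet-null and 481 in STAT6-null cells, against 206 in WT cells. For Il3 they were Tbkbp1 (0.942), Sh3bp2 (0.942), Gp49a (0.941), Kcnk5 (0.937) and Usp1 (0.934). Tbkbp1 averaged 0.467 FPKM in WT cells and entered only through the mutants, where it was higher. For Csf1 they were Wisp1 (0.978), Fam46c (0.967), Nkg7 (0.915), 1700019D03Rik (0.902) and Spin4 (0.899). Csf1 itself spanned only 0.82, so genes that moved as little as Csf1 were not ranked. In double-null cells 1700019D03Rik averaged 0.552 FPKM, under the filter of 1 FPKM. Wisp1, a secreted matrix protein gene, averaged 28.9 FPKM in double-null, 47.5 in T-bet-null and 63.3 in STAT6-null cells, against 54.5 in WT cells.

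Growth factor transcripts are known to be short-lived through AU-rich stretches in the 3' UTR, which Zfp36, the gene of tristetraprolin, and its relatives bind. The 30-base stretch richest in ATTTA is shown for Csf2 and for Csf1, 5' to 3' as DNA, with ATTTA in capitals.

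Csf2: tttttaaatATTTATTTATTTATTTATTTA

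Csf1: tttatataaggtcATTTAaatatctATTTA

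In the GENCODE M21 transcript Csf2 held 9 ATTTA in 317 bases of 3' UTR, and none of 1642 other 3' UTRs within 20% of that length held as many (median 0). It held the longer form TTATTTATT 4 times, which 2.5% of those UTRs hold at least once. Csf1 held 4 ATTTA in 2111 bases, a number that 46.4% of 2390 UTRs of like length reach, and no TTATTTATT, which 9.5% hold. Il3 held 1 in 101 bases, but RefSeq extends that gene 218 bases further, which was not read here. Zfp36 averaged 410 FPKM in double-null, 325 in T-bet-null and 541 in STAT6-null cells, against 507 in WT cells. It was higher in STAT6-null than in T-bet-null cells by 0.73 (limma adjusted p = 0.000437), on the side where Csf2 was higher by 1.99. Of 11 decay genes, 4 were called higher and 5 lower in T-bet-null cells against WT, among them Khsrp (0.75) and Zc3h12d (-0.73). These counts are near the 34.2% higher and 36.3% lower over all tested genes.

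Markers of other cells that make these factors were read beside the members. Mast cells and basophils make interleukin-3; of their 10 markers, Kit and Hdc had a line, and Cpa3, Mcpt8, Fcer1a, Ms4a2 and Gata2 did not. The summed level was 58 to 64 FPKM in double-null, 9.52 to 10 in T-bet-null, 33.7 to 34.9 in STAT6-null, and 19.5 to 19.9 in WT libraries, almost all of it Kit. Stroma and endothelium make M-CSF; 2 of 12 markers had a line, summing to 10.7 to 11.3 FPKM in double-null, 10.5 to 10.8 in T-bet-null, 8.15 to 8.78 in STAT6-null, and 24.2 to 26 in WT libraries. Nearly all of that sum was Pecam1, an endothelial gene that leukocytes also express, while Col1a1, the stromal collagen gene, averaged 0.794 FPKM in double-null, 0.427 in T-bet-null and 0.551 in STAT6-null cells, against 0.222 in WT cells. Myeloid markers, 6 of 15 with a line, summed to 55 to 67 FPKM in double-null, 57.8 to 59.3 in T-bet-null, 78.8 to 79.5 in STAT6-null, and 124 in both WT libraries. Ctss, a lysosomal protease gene, carried most of it, at 46.3 FPKM in double-null, 49.5 in T-bet-null and 58.4 in STAT6-null cells, against 108 in WT cells. Cd68, a macrophage marker, was called higher than in WT in double-null (0.45) and STAT6-null cells (0.67), and Lyz2 averaged 8.27 FPKM in double-null, 3.04 in T-bet-null and 13.3 in STAT6-null cells, against 10 in WT cells. Keratinocyte markers, 4 of 7 with a line, summed to 48.8 to 55 FPKM in double-null, 38.7 to 40.9 in T-bet-null, 57.4 to 58.1 in STAT6-null, and 11.4 to 11.7 in WT libraries, most of it Perp, and Krt5, Krt14 and Krt1 had no line. Perp was called higher in double-null (2.39), T-bet-null (1.96) and STAT6-null cells (2.43), as Il3 was. B cell markers, 6 of 9, summed to 2.15 to 3.07 FPKM in double-null, 2.47 to 2.69 in T-bet-null, 3.26 to 8.09 in STAT6-null, and 4.8 to 7.57 in WT libraries. Innate lymphoid markers, 7 of 10, summed to 597 to 711 FPKM in double-null, 282 to 286 in T-bet-null, 288 to 302 in STAT6-null, and 276 to 288 in WT libraries, most of it Areg, which T cells also express. Red cell genes, 2 of 8, summed to 2.63 to 4.15 FPKM in double-null, 7.36 to 7.48 in T-bet-null, 2.65 to 6.53 in STAT6-null, and 224 to 442 in WT libraries. Among these markers Col1a1, Lyz2 and Cd68 were singled out after their values were seen. The part of these other cells in any of the differences was not tested.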

How the data were processed

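The authors deposited 1 table of FPKM values with a column per library. Cufflinks and mm10 are named in the submitters' processing notes, and RefSeq in the table's own name. No source used here gives the aligner, which Cufflinks version was run or whether strand was used. All 11906 lines lay above 0.1 FPKM in all 8 libraries, so genes silent in any library are missing. Where 43 symbols had more than 1 line, that of highest mean was kept (65 set aside), and 17 lines with names turned into dates were tested but not named. Of the symbols, 10575 matched RefSeq of GRCm38.p6, the assembly behind mm10, and 1154 more matched by an older name. Coordinates and spans come from RefSeq and count from 1.

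Values were tested as log2(FPKM + 1) with limma 3.58.1 (R 4.3.3); this scale understates changes of low genes. Genes with at least 1 FPKM in at least 2 libraries entered. The fit had a mean per genotype, an intensity trend and 4 residual degrees of freedom, with two-sided tests and Benjamini-Hochberg adjustment within each of 7 comparisons. The procedure was tested on simulated data. Depth is not printed in the table. From steps of 503 low genes (log2 tolerance 0.001) libraries had 0.856 to 1.04 of a common depth, and 21 genes with 1 transcript gave about 20700000 fragments for WT replicate 1 (quartiles 19100000 and 21500000). By that depth and the longest GENCODE M21 transcript matched to RefSeq, Il3 rested on about 270 to 1750 fragments a library. Csf2 rested on 320 to 1670 and Csf1 on 1420 to 2810, and counting error was 1.9% to 6.1% of a value. RefSeq extends Il3 by 218 bases and Csf2 by 232, and the matched Csf1 transcripts run from 2097 to 4176 bases. Another length would change these counts in proportion. No count test was run on FPKM.

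The members, gene lists and tests were chosen with earlier results of these data known. Named genes were the members, all detected genes of the growth factor and receptor lists, at most 6 called genes with the largest difference from any other list, neighbours within 500 kb and the 5 genes most like each member. Alternatives were another pseudocount, filters, scalings, variance models, sample sets and line choices, a replicate block and leaving out each library. Other tools were Python 3.11.15, pandas 2.3.3, NumPy 2.4.6 and Matplotlib 3.10.9. A gene that the rule would name is not reported here.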

Additional observations from a re-analysis of the deposited data

Results flagged for a closer look

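The effect of STAT6 loss differed between T-bet-null and T-bet-sufficient cells for each of the 3 growth factor genes, by a test of the difference itself. For Il3 the difference of effects was -3.1 (limma adjusted p = 9.27e-05). Il3 was lower in both double-null libraries than in both T-bet-null libraries, and higher in both STAT6-null libraries than in both WT libraries. The first of these did not pass by itself (-0.6, limma adjusted p = 0.0734) and was -0.16 without double-null replicate 2. The difference of effects was -1.09 for Csf2 (limma adjusted p = 0.000616) and -0.69 for Csf1 (limma adjusted p = 0.000256). All 3 rest on the WT libraries, which stood apart from every mutant, and 57.3% of tested genes were called in this test in either direction.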

How the results depend on the processing

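Of 17 alternative settings, none reversed a difference of Il3, Csf2 or Csf1, and 342 values stayed on the same side of the threshold, 9 came to pass it and 3 no longer passed. Changed calls were Csf1 in T-bet-null cells against WT with quantile normalization (-0.19, limma adjusted p = 0.0218), Csf1 in STAT6-null cells against WT with median-of-ratios scaling (0.16, limma adjusted p = 0.0473), and Il3 in double-null against T-bet-null cells with quantile normalization (-0.7, limma adjusted p = 0.0441). Il3 in STAT6-null against T-bet-null cells passed with median-of-ratios scaling (0.69, limma adjusted p = 0.0499), with only the genotypes compared (0.68, limma adjusted p = 0.000145) and without either double-null replicate (0.68, limma adjusted p = 0.00139 and 0.00138). The cause was not tested. Leaving out 1 library gave -1.04 to -0.16 for Il3 in double-null against T-bet-null cells, 0.63 to 0.72 for Il3 and 0.2 to 0.28 for Csf1 in STAT6-null against T-bet-null cells, 0.79 to 1.66 for Il3 in double-null cells against WT and -1.71 to -0.84 against STAT6-null cells.

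With the replicate number as a block, Il3 in STAT6-null against T-bet-null cells gave 0.68 (limma adjusted p = 0.0424), and no other call of the 3 genes changed. The labels do not say that a number is shared, and same-numbered libraries deviated together by r = -0.09 to 0.091 over the genotype pairs, so the block is not a pairing of the samples.

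Among other named genes, Il5 in STAT6-null cells against WT changed sign with quantile normalization (-0.03), without STAT6-null replicate 1 (-0.14) and without WT replicate 2 (-0.23), and passed in none of these, while it gave 0.36 without WT replicate 1. With a filter of 5 FPKM, which tests fewer genes, 2449 genes were called lower in STAT6-null cells against WT, against 3709. Counts of called genes between mutants fell by more than 1.5 times without some libraries. For double-null against T-bet-null cells they were 770 to 958 higher and 872 to 1086 lower without double-null replicate 2 or either T-bet-null replicate. For double-null against STAT6-null cells they were 460 to 610 higher without double-null replicate 2 or either STAT6-null replicate, and 386 to 508 lower without either STAT6-null replicate. For STAT6-null against T-bet-null cells they were 712 to 836 higher and 749 to 869 lower without any 1 of the 4 libraries. Leaving out double-null replicate 1 moved none of them that far. Zfp36 in double-null against STAT6-null cells (-0.39) did not pass without double-null replicate 2 or STAT6-null replicate 1.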

Other observations

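The double-null libraries differed in Il3 by 0.88 on the log2(FPKM + 1) scale, at 71.8 and 38.7 FPKM. Of 1897 genes of like level, within 1 on that scale, 99.8% had a smaller gap between the double-null libraries, and the median gap was 0.083. The values rest on about 880 and 520 fragments, with a counting error of 3.4% and 4.4%. Csf2 in the same libraries had a gap of 0.27, larger than in 94.2% of genes of like level, and Csf1 a gap of 0.09. In WT libraries the gaps were 0.3 for Il3 and 0.28 for Csf2, above 96.7% and 96.1% of genes of like level, with replicate 1 higher for both genes in both genotypes. In STAT6-null libraries Csf2 had a gap of 0.22, above 96% of genes of like level, with replicate 1 higher, while Il3 was higher in replicate 2. Whether these gaps come from the animals, the stimulation or the libraries was not tested.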
